A study of Homo sapiens with 6 samples.

Results

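The HOXC cluster genes are the 9 homeobox genes HOXC4, HOXC5, HOXC6, HOXC8, HOXC9, HOXC10, HOXC11, HOXC12 and HOXC13. They were taken as every array probe annotated with one of these symbols: 13 of 48803 probes, each naming 1 gene. HOXC6 had 4 probes, HOXC4 had 2 and each other member had 1. The probes were read in 3 samples of HEK293 cells grown for 3 days with all-trans retinoic acid (tRA) and dibutyryl-cAMP, named tRA/cAMP, and in 3 samples grown for 3 days in complete medium, named CNTRL. HEK293 is an established line from human embryonic kidney, and all 6 samples were of this line with no stated genetic change. Retinoic acid, a vitamin A derivative, binds nuclear receptors that sit on DNA, and dibutyryl-cAMP enters cells and stands in for the messenger cAMP. Both agents were given together, so their effects cannot be told apart, and no dose is stated in the labels. The comparison asks which genes differ in transcript level after 3 days with the agents.

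HOX genes encode homeodomain transcription factors that set position along the body axis of the embryo. In a HOX cluster the genes with low paralog numbers lie at the 3′ end and are switched on earlier and further forward, and those with high numbers lie at the 5′ end and act further back. Retinoic acid is a classical inducer of HOX genes, and the 3′ genes are known as the most responsive. In the RefSeq gene table (assembly GRCh38.p14) the cluster lies on chromosome 12 between the protein-coding genes CALCOCO1 and SMUG1, in the order HOXC13, HOXC12, HOXC11, HOXC10, HOXC9, HOXC8, HOXC6, HOXC5, HOXC4. The microRNA gene MIR196A2 and the noncoding RNA gene HOTAIR lie among them. No coordinates of the genes are given, because the sources used here give no build for the probes.

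The gene annotations of HOXC4, HOXC5 and HOXC6 share 1 start, so a transcript from that start can run across all 3 genes. The promoter at that start is shown because these 3 genes are the 3′ members whose values are set side by side below. RefSeq promoter entries were matched for HOXC4 and HOXC5, with 1 identical sequence. None was matched for HOXC6, and the starts of its single transcripts were not used here. The 250 bases before the start (chr12:54016638-54016887, GRCh38.p14, plus strand) read as follows, with capitals at matches to the CCAAT box, here on the reverse strand.
HOXC4 and HOXC5 promoter: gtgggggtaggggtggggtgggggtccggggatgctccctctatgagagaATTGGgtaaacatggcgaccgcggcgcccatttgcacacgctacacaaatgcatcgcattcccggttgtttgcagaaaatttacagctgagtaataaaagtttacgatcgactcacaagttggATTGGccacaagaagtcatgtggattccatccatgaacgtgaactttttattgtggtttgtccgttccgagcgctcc
The letters CCAAT were found 2 times in this window and in 32% of 35116 RefSeq promoter windows of the same length, searched on both strands. The exact letters AGGTCA, 1 form of the retinoid receptor motif (12.1% of windows), were not found. Direct repeats of these letters with 1 base (0.0171%), 2 bases (0.00285%) or 5 bases (0.00285%) between the copies contain them, so were not found either. Other forms of the retinoid receptor motif were not searched. The cAMP response element TGACGTCA (1.65%), its shorter form TGACG (21.2%), which it contains,, the TATA box TATAAA (10.7%) and the HOX and PBX composite TGATNNAT (6.47%) were not found either. These matches describe letters in 1 window only.

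Each sample was hybridized to 1 Illumina bead array. Between 14792 and 16103 probes per array were detected at a detection p under 0.01, which ranks a probe among the negative control probes. The median raw intensity lay between 229 and 271, and the arrays of 1 group correlated at 0.990 to 0.991 after normalization. Of 4 retinoic acid response genes 4 rose at an adjusted p under 0.05 in limma, as did 1.11% of all tested genes. This list was chosen with earlier results of these data known. CYP26A1, which degrades retinoic acid, rose 50.6-fold (limma, adjusted p = 5.5e-09). Its relative CYP26B1 rose 12.9-fold, DHRS3, which reduces retinaldehyde, 4.27-fold and RARB, a retinoic acid receptor, 3.89-fold. Whether the 3 samples of a group were separate cultures is not stated in the labels, so the p-values rest on a spread that may be technical. All 6 arrays carry 1 chip number in the labels, with the CNTRL samples in the first positions and the tRA/cAMP samples in the later ones, so position and treatment cannot be told apart. Of 11 kidney lineage markers 5 had a detected probe, while PAX2, PAX8, SALL1 and SIX2 had probes but were not detected on any array.

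HEK293 cells carried signal for 6 of the 9 HOXC genes on every array of both groups: HOXC4, HOXC6, HOXC8, HOXC9, HOXC11 and HOXC13. HOXC5, HOXC10 and HOXC12 had no probe detected on any array at a p under 0.01. Of the 6 measured genes 0 passed the threshold, a Benjamini-Hochberg adjusted p under 0.05 over 9944 genes in limma, where 2.56% of all tested genes were called (1.11% higher, 1.46% lower). In the same fit 4 of the 6 had an unadjusted p under 0.05, as had 14.2% of all tested genes; 3 of these were higher with tRA/cAMP (6.88% of all genes) and 1 was lower (7.36%). In 3 of the 6 genes the normalized values of the groups did not overlap, as in 18.9% of all tested genes; 2 were higher (9.20% of all genes) and 1 was lower (9.70%). The median difference of the 6 genes was 0.22 on the log2 scale, with 5 higher and 1 lower, and that of all tested genes was 0.00. Probe brightness differs between sequences, so levels are compared only within a probe, and the genes are not ranked by level.

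**Figure D1:**
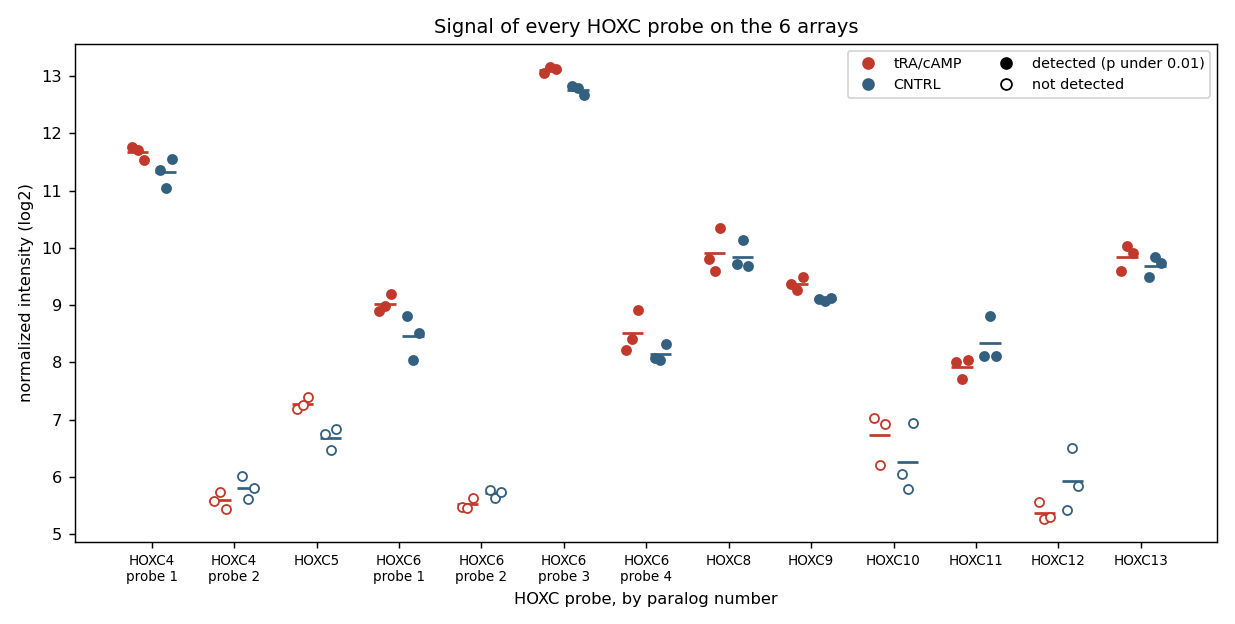
Normalized log2 intensity of each of the 13 HOXC probes (x axis, by paralog number) on the 3 tRA/cAMP and 3 CNTRL arrays; points are arrays, short lines are group means, and open points were not detected at a p under 0.01. The 8 probes with filled points were detected on all 6 arrays and the other 5 on 0.

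At the 3′ end of the cluster, HOXC4, known for driving the antibody-diversifying enzyme AID in B cells, was detected on every array through probe ILMN_1719975. Its raw signal was 3654, 3799 and 2603 in the tRA/cAMP samples, against 3239, 2206 and 3225 in the CNTRL samples. The groups overlapped, with CNTRL replicate 2 the lowest array. After normalization the level was 11.67 ± 0.12 with tRA/cAMP and 11.32 ± 0.25 in CNTRL (log2, SD, n = 3 each). The difference of 0.35, with a 95% interval of 0.02 to 0.67, did not pass the threshold (limma, adjusted p = 0.323). Without CNTRL replicate 2 it was 0.21. The other HOXC4 probe, ILMN_1757184, annotated to the same transcript NM_014620, was at raw signals of 177 to 222 with tRA/cAMP and 209 to 267 in CNTRL and was detected on 0 arrays. A HOXC4 value therefore rests on 1 of its 2 probes.

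HOXC5, a neighbouring member whose mouse counterpart acts in the neck and upper trunk, lay just below detection. Its raw signal was 346, 363 and 324 with tRA/cAMP, with detection p between 0.0132 and 0.0184, against 337, 279 and 316 in CNTRL, with detection p between 0.0303 and 0.0659. Raw signals overlapped, but after normalization all 3 tRA/cAMP arrays lay above all CNTRL arrays, at 7.28 ± 0.11 and 6.68 ± 0.20 (log2, SD, n = 3 each). No array of either group reached a detection p under 0.01, so no fold is given. With a looser limit, a detection p under 0.05 on all arrays of a group, chosen after the values were seen, HOXC5 entered the fit and did not pass the threshold (limma, adjusted p = 0.0821 over 11346 genes). It entered through the tRA/cAMP group alone, where it was higher, as 2 of the 3 CNTRL arrays reached that limit. That p is therefore no support for a difference. With no filter at all the unadjusted p of HOXC5 was 0.00254 and its adjusted p 0.237 over 48803 probes in limma.

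HOXC6 had 4 probes, which are annotated to its 2 transcripts, and the 3 detected ones were all higher with tRA/cAMP in the group means. HOXC6 is a homeobox gene known for its high level in prostate cancer. The probe that stands for the gene, ILMN_1794492 on transcript NM_004503, gave raw signals of 8584, 9966 and 7921 with tRA/cAMP, against 8467, 6970 and 6708 in CNTRL. Raw signals overlapped through CNTRL replicate 1, and after normalization the groups were apart at 13.11 ± 0.06 and 12.76 ± 0.08 (log2, SD, n = 3 each). The difference was 0.35, or 1.27-fold, with a 95% interval of 0.10 to 0.60, and had the smallest p among the 6 HOXC genes in the main fit without passing the threshold (limma, unadjusted p = 0.0116, adjusted p = 0.177).

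The next HOXC6 probe, ILMN_1740104 on the same transcript, gave raw signals of 675, 739 and 655 with tRA/cAMP, against 737, 450 and 581 in CNTRL. In the fit over 14923 probes its difference was 0.57, with a 95% interval of 0.14 to 0.99 (limma, adjusted p = 0.206), and it was 0.36 without CNTRL replicate 2, its lowest array, and 0.38 without background correction. Probe ILMN_2396039, on transcript NM_153693, gave 499, 566 and 571 with tRA/cAMP, against 530, 450 and 535 in CNTRL. Its groups overlapped, and its difference was 0.36, with a 95% interval of -0.04 to 0.77 (limma, adjusted p = 0.425). Without tRA/cAMP replicate 3 it was 0.16, and without normalization between arrays or without background correction 0.23. The fourth probe, ILMN_1787334 on NM_153693, was detected on 0 arrays, with raw signals of 191 to 196 with tRA/cAMP and 212 to 240 in CNTRL.

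The 3 detected HOXC6 probes gave differences of 0.35 to 0.57, and the 2 transcripts were not told apart by them. Of the 8 tested HOXC probes 0 were called in limma, as against 2.01% of all tested probes, and 4 had an unadjusted p under 0.05, as had 13.8% of all. For the probes ILMN_1794492 and ILMN_2396039 the change between groups differed by -0.01 on the log2 scale (exact permutation test, two-sided, p = 1). In both pairs with ILMN_1740104 the changes differed by 0.21 to 0.22 (exact permutation test, two-sided, p = 0.5 each, 0.75 adjusted over 3 pairs), where 3 against 3 arrays cannot go below 0.1. Because HOXC4, HOXC5 and HOXC6 overlap on the same strand in RefSeq, a probe in shared sequence would read more than 1 of them. The positions of the probes were not used here.

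**Figure D2:**
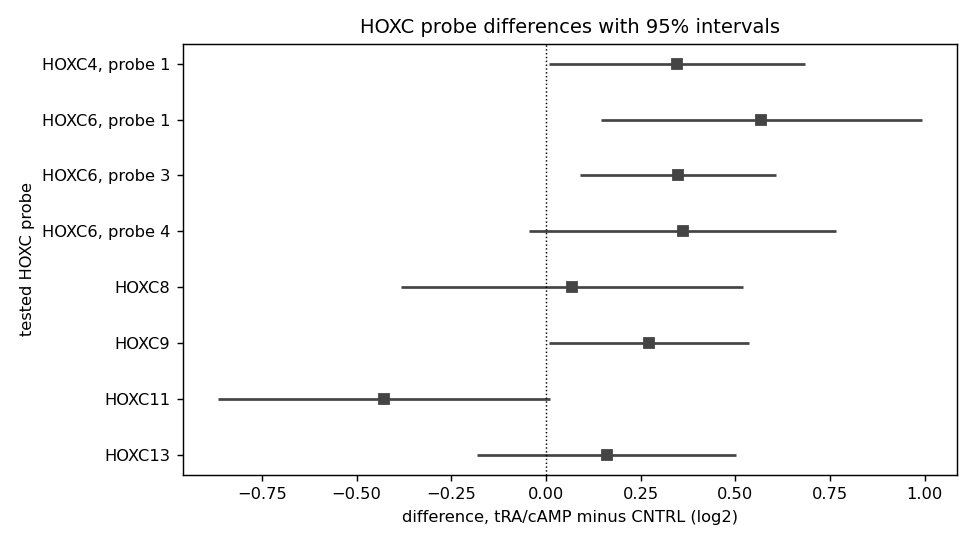
Difference tRA/cAMP minus CNTRL on the log2 scale (x axis) for the 8 tested HOXC probes (y axis), with limma's 95% intervals from the fit over 14923 probes. Of the 8 differences 7 are above 0 and 1, that of HOXC11, is below; 0 passed the adjusted threshold.

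In the middle of the cluster, HOXC8, which patterns the thoracic skeleton in mice, showed no shift beyond its error. Its raw signal was 1104, 1038 and 1239 with tRA/cAMP, against 1174, 1262 and 1045 in CNTRL, and the groups overlapped. The difference was 0.07, with a 95% interval of -0.37 to 0.51 (limma, adjusted p = 0.919), so changes up to 0.51 in size remain within the error. Its sign also turned, to -0.14 without tRA/cAMP replicate 3, -0.01 without CNTRL replicate 3 and -0.03 without normalization between arrays.

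HOXC9, which shapes thoracic motor neurons in mice, had the tightest control arrays of the measured HOXC genes, with a CNTRL SD of 0.02 on the log2 scale. The raw signal was 871, 854 and 763 with tRA/cAMP, against 852, 709 and 774 in CNTRL, which overlapped. After normalization the tRA/cAMP arrays lay above the CNTRL arrays, at 9.37 ± 0.11 and 9.10 ± 0.02 (log2, SD, n = 3 each). The difference of 0.27, with a 95% interval of 0.01 to 0.53, did not pass the threshold (limma, adjusted p = 0.323). Without normalization between arrays it was 0.15.

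Toward the 5′ end, HOXC10, a gene of lumbar motor neurons in mice, was not detected on any array at a p under 0.01. Its raw signal was 331, 264 and 286 with tRA/cAMP, against 270, 226 and 325 in CNTRL, and the groups overlapped. At the looser p under 0.05 it was detected on 2 tRA/cAMP arrays and 1 CNTRL array.

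HOXC11, a posterior member, was the 1 measured HOXC gene with a lower mean in the treated cells. Its raw signal was 458, 424 and 399 with tRA/cAMP, against 539, 624 and 490 in CNTRL, with detection p up to 0.00659. The groups overlapped neither before nor after normalization. Without normalization between arrays the median difference of all tested genes was itself -0.10. The normalized level was 7.92 ± 0.18 with tRA/cAMP and 8.35 ± 0.40 in CNTRL (log2, SD, n = 3 each). The difference of -0.43, with a 95% interval of -0.85 to -0.00, did not pass the threshold (limma, unadjusted p = 0.0491, adjusted p = 0.348). Without CNTRL replicate 2, the highest array, it was -0.20, and with the background left in it was -0.26.

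HOXC12 was at background, with raw signals of 204, 166 and 159 with tRA/cAMP, against 197, 282 and 230 in CNTRL, and was detected on 0 arrays at either limit. HOXC13, which controls keratins of hair and nail, was detected on all arrays. Its raw signal was 985, 1331 and 966 with tRA/cAMP, against 1047, 1058 and 1072 in CNTRL. The tRA/cAMP samples lay on both sides of the CNTRL samples, and the difference of 0.16 had a 95% interval of -0.17 to 0.49 (limma, adjusted p = 0.716). It was 0.06 without CNTRL replicate 1, 0.07 without tRA/cAMP replicate 2, 0.28 without tRA/cAMP replicate 1 and 0.05 without normalization between arrays.

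On the normalized scale CNTRL replicate 2 was the lowest of all 6 arrays for the detected HOXC4 probe, HOXC5, HOXC9, HOXC10 and the HOXC6 probes ILMN_1740104 and ILMN_2396039, and the highest of all 6 for HOXC11 and HOXC12. The count of 4 measured genes with an unadjusted p under 0.05 in limma was lower with any array left out. It was 1 without CNTRL replicate 2 or tRA/cAMP replicate 1, 3 without CNTRL replicate 3, and 2 without any one of the other arrays. Within the group of 3 no array can be tested as an outlier.

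The other HOX clusters were read in the same fit on the same samples. HOXB genes rose in 4 of 7 tested, with a median difference of 1.01 on the log2 scale, and the 1 tested HOXA gene, HOXA2, rose; 0 of 8 tested HOXD genes were called, with a median of 0.02. Of all tested genes 1.11% were called higher. The called genes were HOXB2 (2.78-fold, adjusted p = 6.7e-05), HOXB5 (2.34-fold), HOXB8 (2.11-fold), HOXB6 (2.01-fold) and HOXA2 (2.28-fold), all in limma.

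Set beside the paralog of the same number, HOXC6 differed by 0.35 and HOXB6 by 1.01, and HOXC8 by 0.07 and HOXB8 by 1.07. The change of HOXC6 was smaller than that of HOXB6 by 0.66 and that of HOXC8 smaller than that of HOXB8 by 1.01, with all 3 tRA/cAMP arrays below all CNTRL arrays in the within-array difference of each pair (exact permutation test, two-sided, p = 0.1 each, 0.4 adjusted over 8 pairs). That p is the smallest that 3 against 3 arrays allow. HOXC4 differed by 0.35 and HOXB4, also not called, by 0.58 (exact permutation test, two-sided, p = 0.4). Against HOXD4, HOXD8, HOXD11 and HOXD13 the changes of the HOXC paralogs differed by -0.37 to 0.14, and against HOXB13 by 0.08 (exact permutation tests, two-sided, p between 0.2 and 1). For HOXC5, which was not tested, the paralog HOXB5 was among the called genes.

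**Figure D3:**
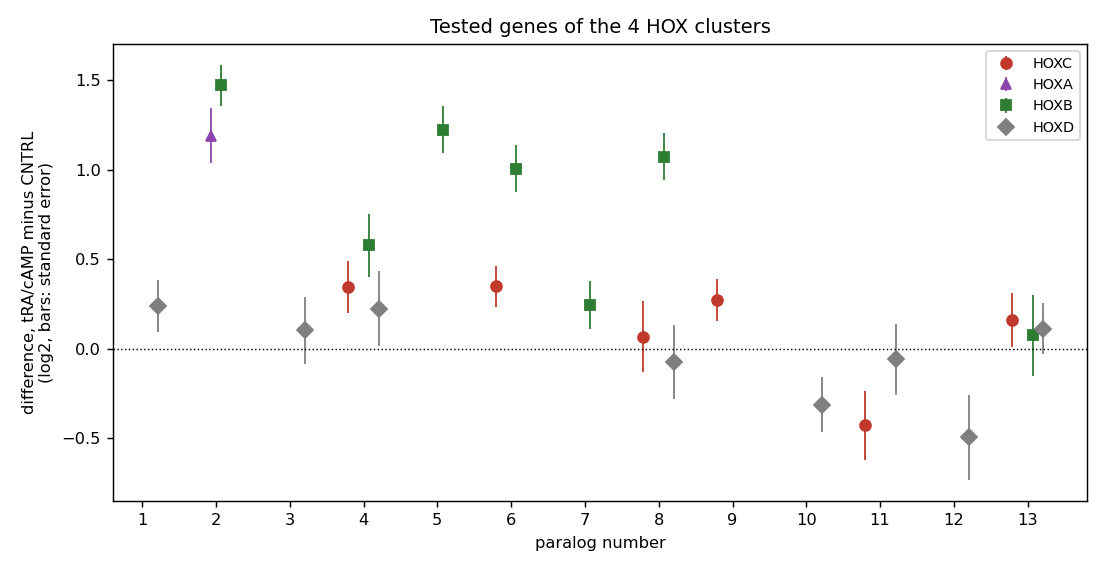
Difference tRA/cAMP minus CNTRL on the log2 scale (y axis, bars are limma standard errors) for the tested genes of the HOXC, HOXA, HOXB and HOXD clusters by paralog number (x axis). The HOXC genes lie between -0.43 and 0.35 and the HOXD genes between -0.49 and 0.24. The 5 called HOXA and HOXB genes lie between 1.01 and 1.47. The tested HOXB genes that were not called, HOXB4, HOXB7 and HOXB13, lie at 0.58, 0.25 and 0.08.

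Of 8 noncoding RNAs of the HOXC locus 2 had a probe, HOTAIR and HOXC-AS1, and both were at background; the others were not analysed here. HOTAIR, a noncoding RNA transcribed antisense to HOXC11, gave raw signals of 290, 232 and 217 with tRA/cAMP, against 289, 287 and 271 in CNTRL, and HOXC-AS1, an antisense RNA of the cluster, gave 247, 300 and 228 with tRA/cAMP, against 261, 262 and 273 in CNTRL. Neither was detected on any array at a p under 0.01. Of 14 genes flanking the cluster 10 were tested and 0 were called in limma (2.56% of all tested genes). Their differences lay between -0.32 and 0.33. In limma 1 of the 10 had an unadjusted p under 0.05 (14.2% of all tested genes). The groups did not overlap in 3 of the 10 (18.9% of all tested genes). The adjacent CALCOCO1 and SMUG1 differed by -0.03 and 0.03.

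Transcripts of genes whose products work with or on HOX genes were also read. Of 7 tested HOX cofactor genes, which encode the PBX, MEIS and PKNOX partners of HOX proteins on DNA, 1 rose and 0 fell, with a median of 0.29 and 2 at an unadjusted p under 0.05, where over all tested genes 2.56% were called and 14.2% reached that p. It was MEIS2, which rose 1.60-fold (limma, adjusted p = 0.0213), a call lost in 8 of 18 alternatives with adjusted p between 0.0531 and 0.311. Of 22 tested Polycomb genes, which keep HOX clusters silent, 0 were called in limma, with a median of 0.05 and 4 at an unadjusted p under 0.05, all higher (6.88% of all tested genes); the groups did not overlap in 7 of the 22 (18.9% of all). Of 11 tested Trithorax and H3K27 demethylase genes, which oppose them, 0 were called in limma, with a median of -0.01 and 1 at an unadjusted p under 0.05.

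The tested genes nearest to HOXC6 in pattern, by the root mean square distance of log2 values over the 6 arrays after centring on the CNTRL mean, were SAT1 (0.0429), CDS1 (0.0442) and PSMC3IP (0.0446) among 9938 genes. SAT1 acetylates polyamines, CDS1 makes CDP-diacylglycerol, and PSMC3IP takes part in homologous recombination. Their differences of 0.33 to 0.35 on the log2 scale are near that of HOXC6 by this choice, and 0 of the 3 was called in limma.

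Some markers of several cell types were called in limma, where 1.11% of all tested genes were called higher and 1.46% lower. HOXC genes are also active in fibroblasts. Of 8 fibroblast markers 3 were tested and 0 rose, while COL3A1, a fibrillar collagen, fell by 1.37 and LUM, a matrix proteoglycan, fell by 1.56 on the log2 scale. COL1A1, the other tested marker, differed by -0.15 and was not called in limma. Sums here and below cover only the tested markers of a list. The summed normalized signal of the 3 tested fibroblast markers was 2035 to 2947 with tRA/cAMP and 5490 to 6069 in CNTRL. COL3A1 gave the largest part of it. COL1A2, DCN, FAP, PDGFRB and THY1 were not detected on any array. Of 5 endothelial markers 1 was tested, VWF, a clotting factor carrier, which fell by 1.52. Its normalized signal was 117 to 233 with tRA/cAMP and 407 to 480.1 in CNTRL, and CDH5, KDR and TEK were not detected. Of the 5 tested kidney lineage markers the transcription factor gene GATA3 rose by 0.94 and EYA1, a kidney progenitor gene, fell by 1.05, with sums of 3048 to 3226 with tRA/cAMP and 3343 to 3448 in CNTRL. Of 9 neuronal markers 3 were tested and MAP2, a microtubule protein gene, fell by 0.84, with sums of 3388 to 3866 with tRA/cAMP and 3791 to 3956 in CNTRL, while ELAVL3, ELAVL4, INA, NEFH and NEFM were not detected. MAP2, LUM and VWF were detected on 1 of the 3 tRA/cAMP arrays and on all CNTRL arrays. These 3 genes were thus tested only through the CNTRL group, where they were higher, and their falls are not used as support. The GATA3 call was lost in 6 of 18 alternatives and the MAP2 call in 5 of 17. Of 5 blood cell markers 1, CD14, was tested and not called in limma. Its normalized signal was 210.1 to 383 with tRA/cAMP and 178 to 232 in CNTRL, and CD3E, HBB and PTPRC were not detected. The part of these shifts in the HOXC values was not tested. All 6 samples were of the HEK293 line. The markers are therefore read as transcripts of this line and not as shares of other cell types. In bulk samples fewer cells with a transcript and less of it per cell cannot be told apart.

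**Figure D4:**
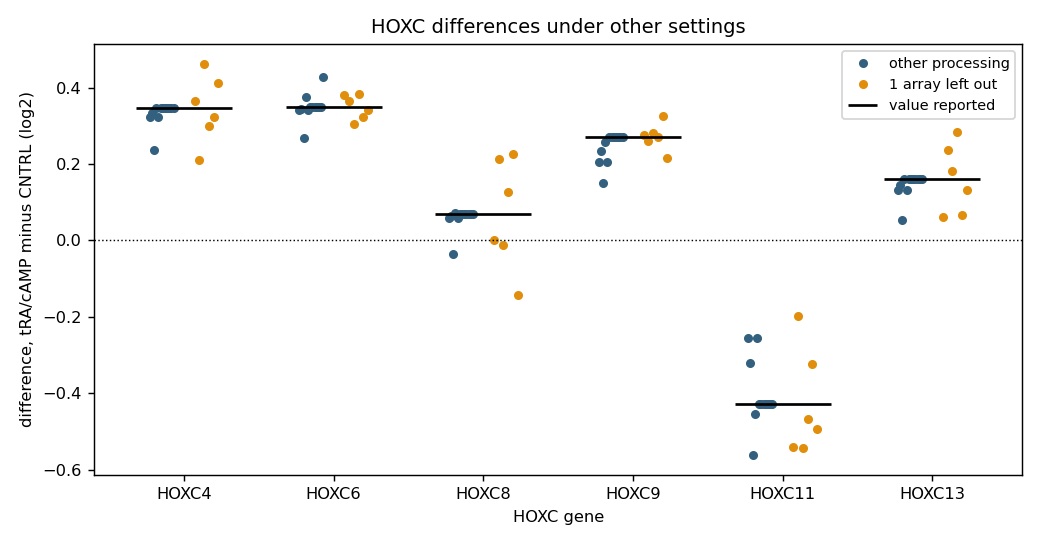
Difference tRA/cAMP minus CNTRL on the log2 scale (y axis) of the 6 tested HOXC genes (x axis); black lines are the values reported, blue points other processing and orange points 1 array left out. HOXC6 stays between 0.27 and 0.43 and HOXC11 between -0.56 and -0.20, while HOXC8 spans -0.14 to 0.23.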

How the data were processed

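Total RNA was labelled as biotinylated cRNA, per the labels' protocols. The deposited intensity values are average bead signals per probe and array on a linear scale; the submitters' processing notes name BeadStudio. The authors also deposited a detection p-value per probe and array, per the file headers. A second deposited intensity table ranked probes as the raw signals of each array did and served as an alternative; the sources used here do not say how the authors made it.

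In R 4.3.3 the neqc function (limma 3.58.1) was applied to raw signals (offset 16, quantile normalization, log2). Probes were named from the platform annotation. Tests covered the 14923 probes that every array of 1 or both groups detected at a p under 0.01, and a gene's brightest probe stood for it (9944 genes). Fits used lmFit and eBayes over 6 arrays without covariates; the procedure was tested on simulated data. Fold changes refer to the background-corrected scale.

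Every HOXC member and probe is named, with the called members of each list, up to 4, and the 3 genes nearest HOXC6. Members and lists were chosen with earlier results of these data known. Of alternatives tried, 1 filter was added after the data were seen. Plots used matplotlib 3.10.9 in Python 3.11.15.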

Additional observations from a re-analysis of the deposited data

How the results depend on the processing

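In 18 alternatives 0 HOXC genes, and in 17 of them 0 HOXC probes, were called by limma (unadjusted p under 0.05 in 1 to 4 genes); the mean of probes gives no probe value, with a lowest HOXC adjusted p of 0.0783, for HOXC6 with a variance trend and robust fit. Of 108 HOXC gene values 105 kept their direction, but part of these could not move. The other filters, the variance trend and the replicate block left every HOXC difference unchanged, and the mean of probes changed only that of HOXC6. The deposited table gave nearly the same differences as no background correction. The 3 values that turned were of HOXC8: -0.0348 without normalization between arrays, -0.0109 without CNTRL replicate 3 and -0.144 without tRA/cAMP replicate 3. They were alike for its probe, and the cause was not tested. Without single arrays HOXC8 ran up to 0.225. Over all genes 255 were called, 110 higher and 145 lower. Without normalization there were 163, 43 of them higher, with the median of all genes moved to -0.10; with no filter 131, 53 higher and 78 lower, among more genes; with detection on all 6 arrays 89 were lower. With 1 array left out the calls ran from 138 to 196 (52 to 83 higher, 85 to 113 lower), with fewer arrays. Same-numbered samples did not deviate together (correlations of -0.05 to 0.05), so the replicate block was an alternative only; with it 0 HOXC genes were called and 1 had an unadjusted p under 0.05, and MEIS2 was no longer called (adjusted p = 0.0564). Signal near background limits HOXC5, HOXC10 and HOXC12.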
